A study of Mus musculus with 6 samples.

Results

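The nuclear genes of oxidative phosphorylation were examined in chromatin of 2 mouse kidney cell lines. They were taken as every gene whose symbol matched the subunit families Ndufa, Ndufb, Ndufc, Ndufs and Ndufv, Sdha to Sdhd, Uqcr, Cox4 to Cox8 and Atp5, which gave 85 of 21937 genes. By complex these were 37 genes of complex I, 4 of complex II, 8 of complex III, 19 of complex IV and 17 of complex V. The symbols also took in 4 related genes that do not encode standing subunits. Cox4nb encodes a component of the endoplasmic reticulum membrane complex, Atp5s a coupling factor, Atp5sl a relative of Atp5s, and Ndufa4l2 a relative of Ndufa4. Ndufa4 was counted with complex I by its symbol, although its protein is found with complex IV.

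The chromatin came from mK4 and mK3, immortalized lines of the metanephric kidney at stage E11.5, both labelled as strain CD1. Chromatin immunoprecipitation followed by sequencing (ChIP-seq) recovers DNA fragments with an antibody against a histone mark. From each line, 1 library was made with an H3K4 antibody (labelled Abcam ab8898), 1 with an H3K27 antibody (labelled Active Motif 39535) and 1 from input chromatin without antibody. No treatment or genotype is labelled, and the title of the series concerns histone methylation and nephron progenitor fate. The catalogue number ab8898 is known as that of an antibody to trimethylated H3K9, so "H3K4" below means the libraries labelled so. The Zfp genes, a family that often carries trimethylated H3K9, had median H3K4 over input of -0.01 in mK4 and -0.06 in mK3 on the log2 scale over 362 genes.

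The respiratory chain passes electrons from NADH (complex I) and succinate (complex II) through ubiquinone, complex III and cytochrome c to oxygen (complex IV), and complexes I, III and IV pump protons. ATP synthase (complex V) lets the protons return through its c-ring, which turns a shaft inside the F1 head and drives ATP formation. A few core subunits are encoded in mitochondrial DNA, and the nuclear genes described here encode most of the others. The symbols did not take in every nuclear subunit, and Cyc1 of complex III was counted with the electron carriers. Active promoters usually carry methylated H3K4, and Polycomb silencing leaves trimethylated H3K27. The kidney tubule depends on this pathway for ion transport, whereas nephron progenitors are known to rely more on glycolysis.

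The exon counts summed to 714011 reads in mK4 and 595305 in mK3 for H3K4, to 481235 in mK4 and 593079 in mK3 for H3K27, and to 386695 in mK4 and 311409 in mK3 for input. Of the 14 metanephric mesenchyme genes used as a check of the labels, 1 was marked by H3K4 (at least 2-fold over input) in each line, against 3.69% of all genes in mK4 and 4.94% in mK3. H3K27 marked 0 of them in mK4 and 2 in mK3, against 9.06% of all genes in mK4 and 10.3% in mK3, so these few genes did not check the labels, and chromatin counts do not give RNA levels. With 1 library per group there was no replicate check and no test, and intervals are 95% exact intervals for counting error. A mark on part of the cells and a weaker mark on all cells cannot be told apart. The oxidative phosphorylation genes were short, with a median exon length of 684 bases (296 to 4938) against 2300 for all genes, and 38 of the 85 had a mean scaled count of at least 10. A total of 12 members had 0 reads in at least 1 library, and 18 had under 5 reads in both inputs.

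The promoters show what the genes share in sequence. All 85 members were matched to a RefSeq gene of assembly GRCm38.p6, and 75 promoters of 69 members were held, each from 250 bases before to 50 bases after the start. These promoters were richer in CpG than those of protein-coding genes at large, with a median of 19 CpG sites per 300 bases against 13, and an observed over expected CpG ratio of 0.807 against 0.567. The GC content was close, at a median of 57.3% against 56.3%. Motifs were searched on both strands, and a match describes letters, not binding. The core of the nuclear respiratory factor NRF1 site (GCGCA, then any base, then GCGC) was found in 24.0% of the member promoters and 6.38% of all 21263 promoters. The site of ETS factors such as GABP (CCGGAAG) was found in 21.3% against 11.6%, and that of YY1 (AAGATGGC) in 16% against 3.05%. At least 1 of these 3 motifs was present in 53.3% of member promoters and 18.9% of all promoters, and no matches of different motifs overlapped in the members. TATAAA was found in 10.7% against 12.6% and CCAAT in 42.7% against 38.2%. A start facing away from another gene's start within 1000 bases was found for 17 of the 69 members (24.6%) and for 8.48% of all genes. Atp5c1 was paired in this way with Kin, Atp5j with Gabpa, Ndufa7 with Rps28 and Sdhd with Timm8b.

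A pair of promoters is printed to set a gene of high H3K4 beside one of low H3K4, that of Atp5c1, which had the highest log2 H3K4 over input of the 85 genes in both lines, and that of Sdha, whose H3K4 lay below input in both lines. Both hold NRF1 core matches, shown in capitals. They are given 5′ to 3′ along the gene, Atp5c1 from chr2:10080383-10080682 and Sdha from chr13:74350191-74350490, both on the minus strand of GRCm38.p6. Another Atp5c1 promoter, chr2:10080461-10080760, is not printed and held no match to the NRF1 core, ETS or YY1 motif.
Atp5c1: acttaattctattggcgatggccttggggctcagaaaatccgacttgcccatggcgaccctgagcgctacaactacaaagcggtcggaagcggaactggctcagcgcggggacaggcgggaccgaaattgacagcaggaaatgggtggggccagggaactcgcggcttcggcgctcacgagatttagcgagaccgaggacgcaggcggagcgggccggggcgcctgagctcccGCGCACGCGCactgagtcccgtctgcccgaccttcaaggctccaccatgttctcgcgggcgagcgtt
Sdha: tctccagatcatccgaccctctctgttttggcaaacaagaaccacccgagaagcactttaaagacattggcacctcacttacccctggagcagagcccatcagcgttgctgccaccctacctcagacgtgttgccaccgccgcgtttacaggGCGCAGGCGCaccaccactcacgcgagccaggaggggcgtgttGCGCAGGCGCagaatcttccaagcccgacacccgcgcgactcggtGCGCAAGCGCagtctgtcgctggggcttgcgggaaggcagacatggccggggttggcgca

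A second pair shows a widely expressed subunit beside its tissue-restricted isoform, with every CpG site in capitals. Cox8b is the isoform of heart and skeletal muscle, and Cox8a is its counterpart in most tissues. The Cox8b promoter (chr7:140900397-140900696, minus strand, GRCm38.p6) held 2 CpG sites and the Cox8a promoter (chr19:7217567-7217866, minus strand) held 19.
Cox8b: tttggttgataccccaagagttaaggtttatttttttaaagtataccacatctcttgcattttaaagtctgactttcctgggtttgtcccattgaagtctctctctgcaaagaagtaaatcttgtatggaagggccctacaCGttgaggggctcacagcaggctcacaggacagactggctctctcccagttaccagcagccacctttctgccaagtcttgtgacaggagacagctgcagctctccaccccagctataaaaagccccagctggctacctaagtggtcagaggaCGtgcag
Cox8a: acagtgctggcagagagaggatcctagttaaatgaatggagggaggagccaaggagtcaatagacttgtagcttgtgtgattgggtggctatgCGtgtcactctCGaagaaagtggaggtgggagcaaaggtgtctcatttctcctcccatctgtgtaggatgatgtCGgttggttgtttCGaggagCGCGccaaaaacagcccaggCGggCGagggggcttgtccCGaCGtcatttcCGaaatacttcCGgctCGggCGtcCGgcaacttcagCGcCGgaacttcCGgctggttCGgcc

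In both lines the genes of oxidative phosphorylation carried more H3K4 and less H3K27 than their input. The 85 genes together held 1821 of the H3K4 reads in mK4 and 1443 in mK3, 514 of the H3K27 reads in mK4 and 688 in mK3, and 746 of the input reads in mK4 and 626 in mK3. Per 1000000 reads this was 2550 and 1929 for H3K4 and input in mK4, and 2424 and 2010 in mK3. The H3K4 share was 1.32 times the input share in mK4 (1.21 to 1.44) and 1.21 times in mK3 (1.10 to 1.33). For H3K27 the share was 0.554 of the input share in mK4 (0.494 to 0.620) and 0.577 in mK3 (0.517 to 0.644). Set against exon length alone, the members held 1.93 times their share for H3K4 in mK4 and 1.84 times in mK3. For H3K27 these values were 0.809 in mK4 and 0.879 in mK3, and for input 1.46 in mK4 and 1.52 in mK3, so that the input itself was high over these genes.

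Gene by gene, ratios were formed as log2 of counts scaled to equal totals plus 5, a scale that understates differences of genes with few reads. The median H3K4 over input was 0.26 in mK4 and 0.05 in mK3, against 0.00 for all genes in each line. The median H3K27 over input was -0.53 in mK4 and -0.43 in mK3, again against 0.00, and 68 of the 85 genes lay below input in each line. Of all 21937 genes, 10873 lay below input for H3K27 in mK4 and 10363 in mK3. The 2 lines did not share the order of genes closely. Across the 85 genes the correlation between the lines was r = 0.47 (rho = 0.44) for H3K4 over input and r = 0.16 (rho = 0.12) for H3K27 over input, where the points share exons and their length but no library. H3K4 lay above input in both lines at 38 genes and below in both at 18, and H3K27 lay below input in both at 57 and above in both at 6. These counts over both lines were not made for all genes.

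**Figure D1:**
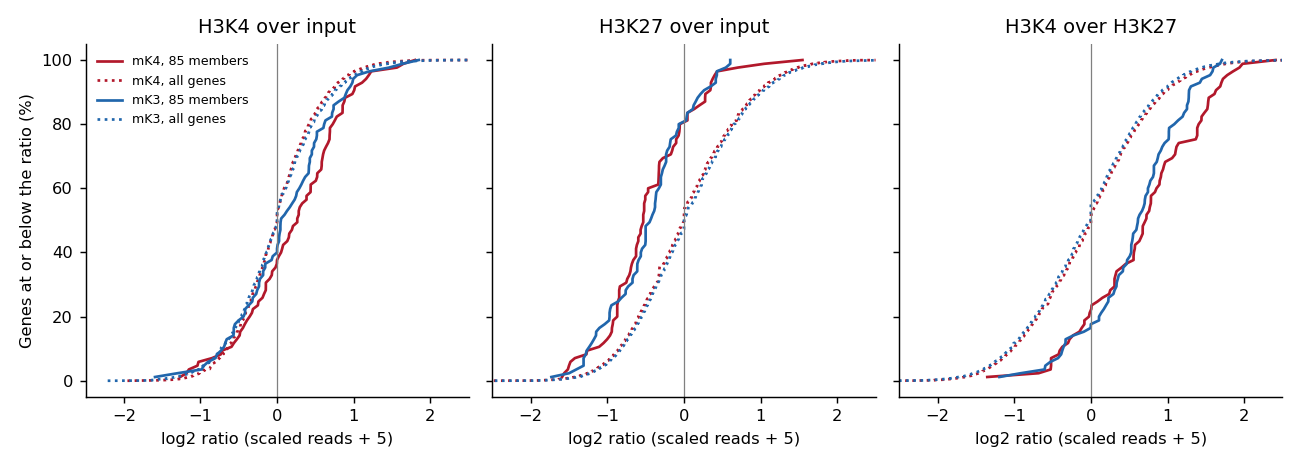
The share of genes (y axis, percent) at or below each log2 ratio (x axis, scaled reads plus 5) is drawn for the 85 genes (solid lines) and all 21937 genes (dotted lines) in mK4 (red) and mK3 (blue), for H3K4 over input, H3K27 over input and H3K4 over H3K27. The members lie to the left of all genes for H3K27 (medians -0.53 in mK4 and -0.43 in mK3) and to the right for H3K4 over H3K27 (medians 0.72 in mK4 and 0.62 in mK3), while the H3K4 curves lie closer together.

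On this scale, 2-fold or more over the input of the same line counted as marked. H3K4 marked 9 of the 85 genes in mK4 (10.6%, against 3.69% of all genes) and 5 in mK3 (5.88%, against 4.94%), so the mK3 share was near the background. Both lines marked Atp5c1 and Ndufb11, and 12 genes were marked in at least 1 line. Marks in both lines or in at least 1 line were not counted over all genes. H3K4 at least 2-fold below input was found at 5 genes in mK4 (Atp5g2, Atp5h, Cox4i2, Sdha and Sdhd, against 2.53% of all genes) and at 2 in mK3 (Atp5j2 and Ndufa4l2, against 3.63%). H3K27 marked 2 genes in mK4, Cox6a2 and Cox6b2 (against 9.06% of all genes), and 0 in mK3 (against 10.3%). H3K27 at least 2-fold below input was found at 11 genes in mK4 (against 6.11% of all genes) and 15 in mK3 (against 5.36%). Atp5s was the 1 gene shared by the lines, and shared genes were not counted over all genes. These counts moved with the pseudocount: H3K4 marked 18 genes in mK4 (against 9.62% of all genes) and 13 in mK3 (against 11.7%) with a pseudocount of 1. With a pseudocount of 20 it marked 1 in mK4 (against 0.419%) and 1 in mK3 (against 0.634%). With exon length in place of input it marked 21 in mK4 (against 6.3%) and 17 in mK3 (against 5.87%).

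**Figure D2:**
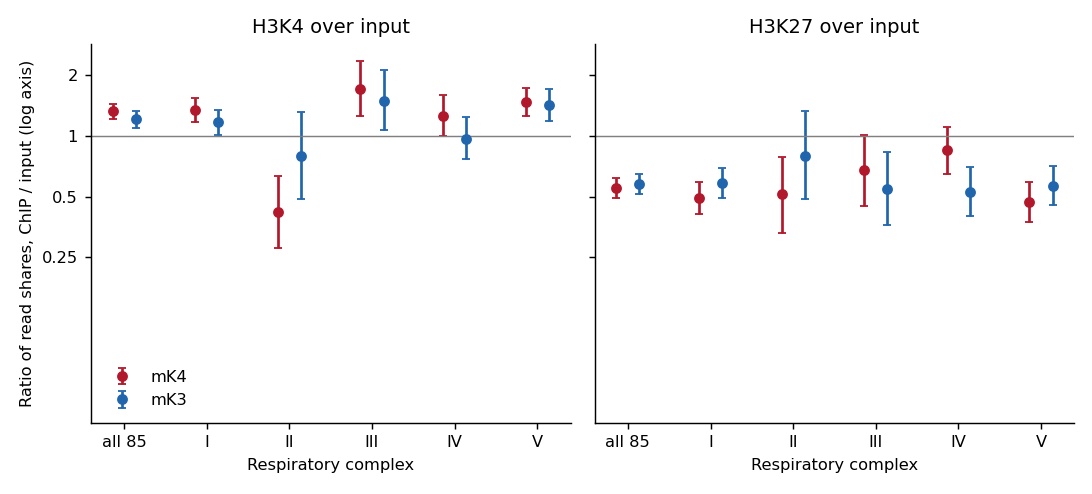
Ratios of summed read shares (y axis, ChIP over input of the same line, log axis) are shown for all 85 genes and for complexes I to V, in mK4 (red) and mK3 (blue), with bars for the 95% counting interval. Complex II had the lowest H3K4 ratio (0.420 in mK4 and 0.794 in mK3), and H3K27 lay below 1 in every complex in both lines.

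Complex I, which oxidizes NADH, had 1.34 times its input share of H3K4 reads in mK4 (1.18 to 1.54) and 1.17 times in mK3 (1.01 to 1.35). Its H3K27 share was 0.493 of input in mK4 (0.410 to 0.593) and 0.584 in mK3 (0.495 to 0.690), with 33 of 37 genes below input in mK4 and 31 in mK3. The 7 core subunits and the 30 accessory or other genes had the same H3K4 ratio in mK4, 1.34 each, and 1.11 and 1.19 in mK3.

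The complex I genes with high H3K4 encode accessory subunits. Ndufb8, of the membrane arm, had the highest mean H3K4 over input in the complex among genes with a mean scaled count of at least 10. It had 38 H3K4, 3 H3K27 and 4 input reads in mK4, and 20 H3K4, 10 H3K27 and 7 input reads in mK3. The H3K4 share at Ndufb8 was 5.15 times input in mK4 (1.85 to 19.8) and 1.49 times in mK3 (0.607 to 4.18), so its mark was called in mK4. Ndufb11, another membrane arm subunit and an X-linked gene, had 52 H3K4, 9 H3K27 and 12 input reads in mK4, and 18 H3K4, 4 H3K27 and 3 input reads in mK3. Its H3K4 was 2.35 times input in mK4 (1.24 to 4.83) and 3.14 times in mK3 (0.916 to 16.6). All 3 kinds of library were higher at Ndufb11 in mK4, the input included. Ndufa2, a small subunit of the peripheral arm, had 30 H3K4, 0 H3K27 and 3 input reads in mK4, and 14 H3K4, 6 H3K27 and 5 input reads in mK3. Ndufa6, of the LYR motif family, had 20 H3K4, 2 H3K27 and 3 input reads in mK4, and 30 H3K4, 6 H3K27 and 12 input reads in mK3. It was called marked in mK4 although mK3 held more H3K4 reads there, because its mK4 input was low. Ndufa7 had 15 H3K4, 2 H3K27 and 4 input reads in mK4, and 12 H3K4, 4 H3K27 and 1 input read in mK3, where it was called marked against that single input read.

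At the low end, the accessory subunit gene Ndufa9 had the lowest mean H3K4 over input of the complex I genes with a mean scaled count of at least 10, -0.45, with 12 H3K4, 5 H3K27 and 11 input reads in mK4, and 12 H3K4, 12 H3K27 and 9 input reads in mK3. Ndufs3, a core subunit of the peripheral arm, was under the same minimum among the 3 lowest of all complexes for H3K27 over input, with a mean of -1.13. It had 28 H3K4, 9 H3K27 and 12 input reads in mK4, and 11 H3K4, 4 H3K27 and 14 input reads in mK3. Ndufb4 and Ndufs5 could hardly be measured, with 0 to 2 reads and 1 read per library. How reads that match several places in the genome were treated is not given in the sources used here, and short subunit genes of this kind often have processed copies elsewhere.

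Complex II, succinate dehydrogenase, had the lowest H3K4 ratio over input of all complexes, with a counting interval apart from the others in mK4 only. Its 4 genes held 45 H3K4 reads and 58 input reads in mK4, a ratio of 0.420 (0.278 to 0.631), and 44 H3K4 reads and 29 input reads in mK3, a ratio of 0.794 (0.486 to 1.32). Sdha, the flavoprotein that oxidizes succinate, had 18 H3K4, 16 H3K27 and 24 input reads in mK4, and 10 H3K4, 18 H3K27 and 8 input reads in mK3. Sdhb, the iron-sulfur subunit, had 13 H3K4, 9 H3K27 and 14 input reads in mK4, and 14 H3K4, 9 H3K27 and 7 input reads in mK3. The 4 inputs were higher in mK4 together, by 1.61-fold (1.01 to 2.61), with Sdha holding most of the excess. Of the membrane anchors, Sdhc had 5 H3K4, 6 H3K27 and 3 input reads in mK4, and 8 H3K4, 7 H3K27 and 2 input reads in mK3. Sdhd had 9 H3K4, 6 H3K27 and 17 input reads in mK4, and 12 H3K4, 10 H3K27 and 12 input reads in mK3. Against exon length, complex II held 0.611 of its share of H3K4 in mK4 and 0.716 in mK3, while complexes I, III, IV and V lay between 1.37 and 2.73 in mK4 and between 1.32 and 2.53 in mK3. Complex II was thus lowest against either background, but in mK3 its interval over input included 1 and 2 of its 4 genes lay above input. The exon length background also varied with length. Members with exons above the median length had 1.80 in mK4 and 1.69 in mK3, against 2.27 in mK4 and 2.19 in mK3 for the others. All 4 genes of complex II have exons above that median.

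Complex III, which passes electrons from ubiquinol to cytochrome c, had 1.70 times its input share of H3K4 in mK4 (1.25 to 2.34) and 1.49 times in mK3 (1.07 to 2.12). H3K4 lay above input at 7 of its 8 genes in each line. Uqcrq, a small ubiquinone-binding subunit, had the highest mean of the genes with a mean scaled count of at least 10 (0.71 on the log2 scale). It had 43 H3K4, 7 H3K27 and 13 input reads in mK4, and 23 H3K4, 3 H3K27 and 6 input reads in mK3. Uqcrc2, a core protein of the matrix side, had the lowest mean among genes with enough reads (0.21), with 19 H3K4, 13 H3K27 and 7 input reads in mK4, and 12 H3K4, 7 H3K27 and 6 input reads in mK3. Uqcr10, a small subunit of the complex, had 18 H3K4, 4 H3K27 and 2 input reads in mK4, where it was marked, and 20 H3K4, 5 H3K27 and 8 input reads in mK3. Its H3K4 reads were alike in both lines and its input was not.

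Complex IV, cytochrome c oxidase, had an H3K4 ratio of 1.26 in mK4 (1.0 to 1.59) and 0.969 in mK3 (0.764 to 1.24). Its H3K27 ratio was 0.848 in mK4 (0.647 to 1.11) and 0.530 in mK3 (0.403 to 0.697). These sums include Cox4nb, which gave 89 of the 253 H3K4 reads in mK4 and 72 of the 202 in mK3. Cox4nb also gave 29 of the 115 H3K27 reads in mK4 and 55 of the 110 in mK3. Of the 109 input reads in each line it gave 29 in mK4 and 35 in mK3. The ratios of the complex without Cox4nb were not computed. Cox8a, a small subunit of the inner membrane, had the highest mean H3K4 over input of the complex at 0.92. It had 19 H3K4, 10 H3K27 and 7 input reads in mK4, and 26 H3K4, 5 H3K27 and 3 input reads in mK3, where it was called marked. In this complex only Cox4nb, Cox7b and Cox8a had a mean scaled count of at least 10. The related gene Cox4nb had the most reads of the 19 and the lowest mean of these named genes (0.38), still above input. It had 89 H3K4, 29 H3K27 and 29 input reads in mK4, and 72 H3K4, 55 H3K27 and 35 input reads in mK3. Several genes with fewer reads had means below input.

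Complex V, ATP synthase, had an H3K4 ratio of 1.47 in mK4 (1.25 to 1.73) and 1.42 in mK3 (1.18 to 1.71), and an H3K27 ratio of 0.470 in mK4 (0.373 to 0.589) and 0.567 in mK3 (0.456 to 0.705). Atp5c1, the gamma subunit that forms the rotating shaft, had 88 H3K4, 13 H3K27 and 11 input reads in mK4, and 84 H3K4, 24 H3K27 and 10 input reads in mK3. Its H3K4 share was 4.33 times input in mK4 (2.31 to 9.0) and 4.39 times in mK3 (2.27 to 9.50). Without Atp5c1 the ratio of complex V was 1.31 in mK4 and 1.23 in mK3. The 5 genes of the F1 head (alpha to epsilon) had ratios of 2.02 in mK4 and 1.83 in mK3. Atp5c1 is 1 of them and gave 88 of their 276 H3K4 reads in mK4 and 84 of 263 in mK3. Of their input reads it gave 11 of 74 in mK4 and 10 of 75 in mK3. The F1 ratio without Atp5c1 was not computed. Atp5a1, the alpha subunit of the head, had 64 H3K4, 12 H3K27 and 22 input reads in mK4, and 58 H3K4, 14 H3K27 and 22 input reads in mK3. It combined H3K4 above input with a mean H3K27 over input of -1.11, among the 3 lowest with a mean scaled count of at least 10.

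The 3 genes Atp5g1 to Atp5g3 encode the same mature c subunit of the ring, and their values were unequal. Atp5g3 had 33 H3K4, 4 H3K27 and 7 input reads in mK4, where it was marked, and 13 H3K4, 7 H3K27 and 4 input reads in mK3. Atp5g1 had 16 H3K4, 0 H3K27 and 3 input reads in mK4, and 11 H3K4, 3 H3K27 and 10 input reads in mK3. Atp5g2 had 1 H3K4, 3 H3K27 and 5 input reads in mK4, and 2 H3K4, 4 H3K27 and 3 input reads in mK3, so H3K4 at Atp5g2 did not exceed input in either line. Atp5h, of the peripheral stalk, had 1 H3K4, 3 H3K27 and 6 input reads in mK4, and 1 H3K4, 4 H3K27 and 2 input reads in mK3. Atp5j2, the f subunit, had 9 H3K4, 1 H3K27 and 5 input reads in mK4, and 5 H3K4, 8 H3K27 and 14 input reads in mK3. The related Atp5s was the lowest of complex V with enough reads, with 41 H3K4, 17 H3K27 and 43 input reads in mK4, and 27 H3K4, 24 H3K27 and 29 input reads in mK3. Its relative Atp5sl had 40 H3K4, 14 H3K27 and 12 input reads in mK4, and 23 H3K4, 13 H3K27 and 6 input reads in mK3, and was with Atp5c1 and Cox8a among the 3 highest for H3K27 over input under the same read minimum, whose means were 0.10 at Atp5c1, 0.03 at Atp5sl and 0.02 at Cox8a.

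Setting the 2 ChIP libraries of a line against each other leaves the input out. The H3K4 share of the 85 genes was 2.39 times their H3K27 share in mK4 (2.16 to 2.64) and 2.09 times in mK3 (1.91 to 2.29). H3K4 exceeded H3K27 at 67 genes in mK4 and 70 in mK3, and at 60 in both lines, which was not counted over all genes. Of all 21937 genes, H3K4 exceeded H3K27 at 10608 in mK4 and 9774 in mK3. It was at least 2-fold higher at 27 genes in mK4 (31.8%, against 9.32% of all genes) and 22 in mK3 (25.9%, against 8.36%). Of these genes, 10 were so in both lines, a count not made over all genes. H3K4 was at least 2-fold lower at 1 gene in each line, Cox6b2 in mK4 (against 10.4% of all genes) and Ndufa4l2 in mK3 (against 11.8%). By complex, the ratio was 2.72 in mK4 and 2.00 in mK3 for complex I, 0.820 in mK4 and 0.996 in mK3 for complex II, and 2.52 in mK4 and 2.73 in mK3 for complex III. For complex IV, with Cox4nb included, it was 1.48 in mK4 and 1.83 in mK3, and for complex V 3.13 in mK4 and 2.5 in mK3. Complex II was the 1 complex at or below equal shares. With a pseudocount of 20, 5 genes in mK4 and 3 in mK3 were at least 2-fold higher for H3K4, a count not made over all genes.

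**Figure D3:**
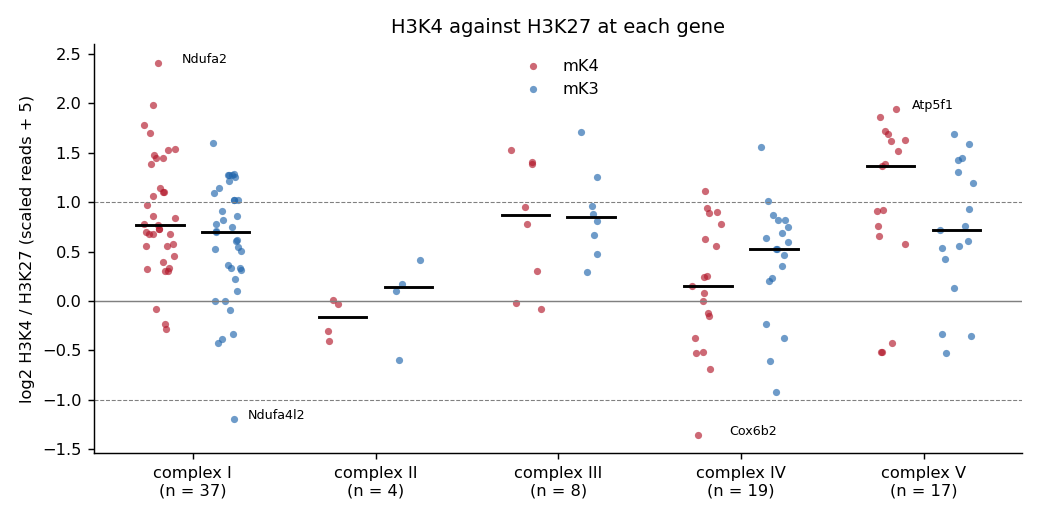
Each point is 1 gene, with its log2 ratio of H3K4 to H3K27 (y axis, scaled reads plus 5) in mK4 (red) and mK3 (blue) by complex, black bars mark medians, and dashed lines mark 2-fold. Most genes lie above 0 (67 of 85 in mK4 and 70 in mK3), and the 4 genes of complex II stay within 2-fold in both lines. Of all 21937 genes, which are not drawn, 10608 in mK4 and 9774 in mK3 lie above 0.

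Complex IV holds most of the subunit isoforms that are restricted to certain tissues, and these had little H3K4 when summed. The 8 isoform genes together had 29 H3K4, 35 H3K27 and 25 input reads in mK4, and 15 H3K4, 29 H3K27 and 20 input reads in mK3. Their 7 widely expressed partners had 117 H3K4, 50 H3K27 and 44 input reads in mK4, and 81 H3K4, 25 H3K27 and 39 input reads in mK3. The H3K4 share over the H3K27 share was 0.558 for the isoforms in mK4 (0.329 to 0.940) and 0.515 in mK3 (0.257 to 0.993), against 1.58 for the partners in mK4 (1.12 to 2.24) and 3.23 in mK3 (2.04 to 5.28). The counting intervals of isoforms and partners did not overlap in either line. Gene by gene, H3K4 exceeded H3K27 at 3 of the 8 isoform genes in each line, among them Cox6a2 in mK4 and Cox7b2 in mK3. It did so at 5 of the 7 partners in mK4 and at all 7 in mK3.

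Cox6a2, the heart and skeletal muscle isoform of subunit VIa, had 9 H3K4, 5 H3K27 and 0 input reads in mK4, and 1 H3K4, 3 H3K27 and 0 input reads in mK3. Its partner Cox6a1 had 21 H3K4, 4 H3K27 and 3 input reads in mK4, and 10 H3K4, 4 H3K27 and 8 input reads in mK3. Cox6b2, of testis, had 1 H3K4, 9 H3K27 and 0 input reads in mK4, and 0 H3K4, 1 H3K27 and 2 input reads in mK3, beside 6 H3K4, 5 H3K27 and 3 input reads at Cox6b1 in mK4, and 5 H3K4, 2 H3K27 and 0 input reads there in mK3. Cox6a2 was called marked by H3K4 as well as by H3K27 in mK4, the 1 member with both calls there. The calls at Cox6a2 and Cox6b2 in mK4 thus rest on 0 input reads, and both genes lie on chromosome 7. Cox4i2, known from lung and hypoxic cells, had 2 H3K4, 4 H3K27 and 7 input reads in mK4, and 1 H3K4, 7 H3K27 and 4 input reads in mK3. Its partner Cox4i1 had 9 H3K4, 7 H3K27 and 8 input reads in mK4, and 9 H3K4, 4 H3K27 and 6 input reads in mK3. Cox7a1, of heart and skeletal muscle, had 2 H3K4, 1 H3K27 and 3 input reads in each line, too few for a comparison, while its partner Cox7a2 had 10 H3K4, 5 H3K27 and 8 input reads in mK4, and 11 H3K4, 5 H3K27 and 11 input reads in mK3.

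Cox8b had 3 H3K4, 4 H3K27 and 3 input reads in mK4, and 1 H3K4, 0 H3K27 and 1 input read in mK3. The testis isoform Cox8c had 2 H3K4, 5 H3K27 and 2 input reads in mK4, and 0 H3K4, 3 H3K27 and 0 input reads in mK3. Both stood under the H3K4 reads of Cox8a in either line, on exons of 365 bases (Cox8b) and 478 bases (Cox8c) against 547. Ndufa4l2, which is induced by hypoxia, had 9 H3K4, 4 H3K27 and 9 input reads in mK4, and 2 H3K4, 12 H3K27 and 7 input reads in mK3, where its H3K4 was 0.149 of input (0.0151 to 0.785). Ndufa4 had 16 H3K4, 5 H3K27 and 7 input reads in mK4, and 8 H3K4, 2 H3K27 and 5 input reads in mK3. The 4 isoform genes with a promoter in the RefSeq table had 2 to 10 CpG sites there, and the 6 partners had 5 to 32, with medians of 8.5 and 18.

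**Figure D4:**
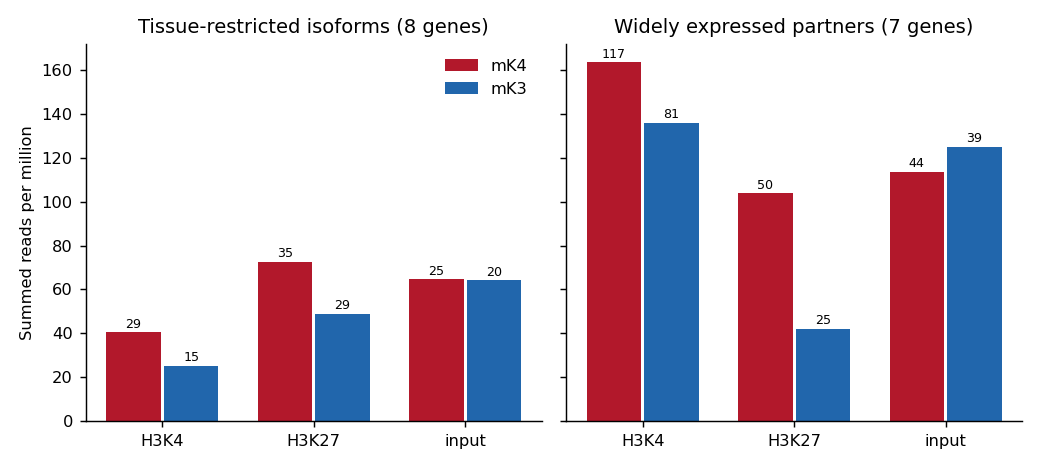
Bars give summed reads per 1000000 (y axis) in the H3K4, H3K27 and input libraries of mK4 (red) and mK3 (blue) for the 8 tissue-restricted isoform genes and their 7 widely expressed partners, and the number on each bar is the reads behind it. Among the isoforms H3K4 is the lowest of the 3 libraries in mK3 and in mK4, and among the partners it is the highest.

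Between the lines, the mK4 share over the mK3 share of all 85 genes was 1.05 for H3K4 (0.981 to 1.13), 0.921 for H3K27 (0.820 to 1.03) and 0.960 for input (0.862 to 1.07), and each interval included 1. Smaller groups moved apart for H3K27. It was lower in mK4 over complex I, and 2.46 times higher in mK4 over the 7 widely expressed partners of the isoforms (1.5 to 4.16), with 50 reads in mK4 and 25 in mK3 and all 7 genes above 0 on the log2 scale. Input at the same 7 genes had a ratio of 0.909 (0.577 to 1.44). Cox7b on chromosome X gave 14 of these H3K27 reads in mK4 and 3 in mK3. Over all genes of that chromosome the H3K27 ratio was 1.49. For H3K4, 3 genes were higher in mK4 by at least 2-fold (Atp5e, Cox7b and Ndufb11, against 4.51% of all genes), and 1 was at least 2-fold lower (Cox7b2, against 2.99%). For H3K27, 2 genes were higher in mK4 by at least 2-fold (Cox6b2 and Cox7b, against 3.73%), and 4 were at least 2-fold lower, all of complex I (Ndufa2, Ndufb6, Ndufv1 and Ndufv2, against 3.54%). The inputs alone gave 4 members at least 2-fold higher in mK4 (against 7.26%) and 6 at least 2-fold lower (against 6.2%), so the ChIP counts were no larger than those of input. With each gene's own input ratio subtracted, 8 members were at least 2-fold higher in mK4 for H3K4 (against 7.54% of all genes) and 2 lower (against 7.36%). For H3K27, 7 were higher (against 7.35%) and 4 lower (against 9.23%), so no count stood far above its background. With a pseudocount of 20 no member passed for either mark.

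The input also differed by chromosome. The mK4 input share was 1.84 times that of mK3 over all genes of chromosome 3, 1.54 times over chromosome 7 and 1.49 times over chromosome X, where 3, 9 and 3 of the members lie. Without chromosomes 3, 7, 14 and X, H3K4 was higher in mK4 at 1 member (Atp5e) and H3K27 at 0, and the mK4 share over the mK3 share of the members was 0.980 for H3K4 and 0.813 for H3K27. Atp5f1, subunit b of the peripheral stalk, lies on chromosome 3 and had 105 H3K4, 15 H3K27 and 41 input reads in mK4, and 42 H3K4, 12 H3K27 and 5 input reads in mK3. Its input ratio between the lines was 6.60-fold (2.61 to 21.4), or 2.17 on the log2 scale, while the neighbouring genes, 10 to either side, had an input log2 ratio of 1.23. The H3K4 call of Atp5f1 in mK3 was made against those 5 input reads, while its H3K4 ratio over H3K27, 4.72 in mK4 (2.73 to 8.73) and 3.49 in mK3 (1.80 to 7.28), did not use the input.

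Cox7b, a subunit of complex IV on chromosome X, had 36 H3K4, 14 H3K27 and 8 input reads in mK4, and 12 H3K4, 3 H3K27 and 6 input reads in mK3. It was 2.5-fold higher in mK4 for H3K4 (1.27 to 5.28) and 5.75-fold higher for H3K27 (1.61 to 31.2), and the input of its neighbours had a log2 ratio of 1.18. Atp5e, the epsilon subunit of the F1 head, had 25 H3K4, 2 H3K27 and 7 input reads in mK4, and 6 H3K4, 3 H3K27 and 3 input reads in mK3. The neighbours of Atp5e on chromosome 2 had an input log2 ratio of 0.17, and its H3K4 was 3.47-fold higher in mK4 (1.39 to 10.4). Cox7b2, the testis isoform of Cox7b, had 1 H3K4, 3 H3K27 and 1 input read in mK4, and 8 H3K4, 2 H3K27 and 3 input reads in mK3.

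The lower H3K27 of complex I in mK4 included subunits that take up electrons. The complex had an mK4 share of 0.767 of its mK3 share (0.637 to 0.922) for H3K27, against 1.05 for H3K4 and 0.907 for input. Ndufv1, which binds the flavin that oxidizes NADH, had 35 H3K4, 4 H3K27 and 13 input reads in mK4, and 25 H3K4, 19 H3K27 and 13 input reads in mK3. Ndufv2, its iron-sulfur partner, had 27 H3K4, 6 H3K27 and 13 input reads in mK4, and 28 H3K4, 23 H3K27 and 14 input reads in mK3. At both genes the input and H3K4 reads were alike while H3K27 was lower in mK4, by a ratio of 0.259 (0.0642 to 0.781) for Ndufv1 and 0.321 (0.107 to 0.812) for Ndufv2. Ndufb6, of the membrane arm, had 22 H3K4, 1 H3K27 and 9 input reads in mK4, and 24 H3K4, 10 H3K27 and 5 input reads in mK3. In neither line did H3K27 exceed 2-fold input at these genes.

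**Figure D5:**
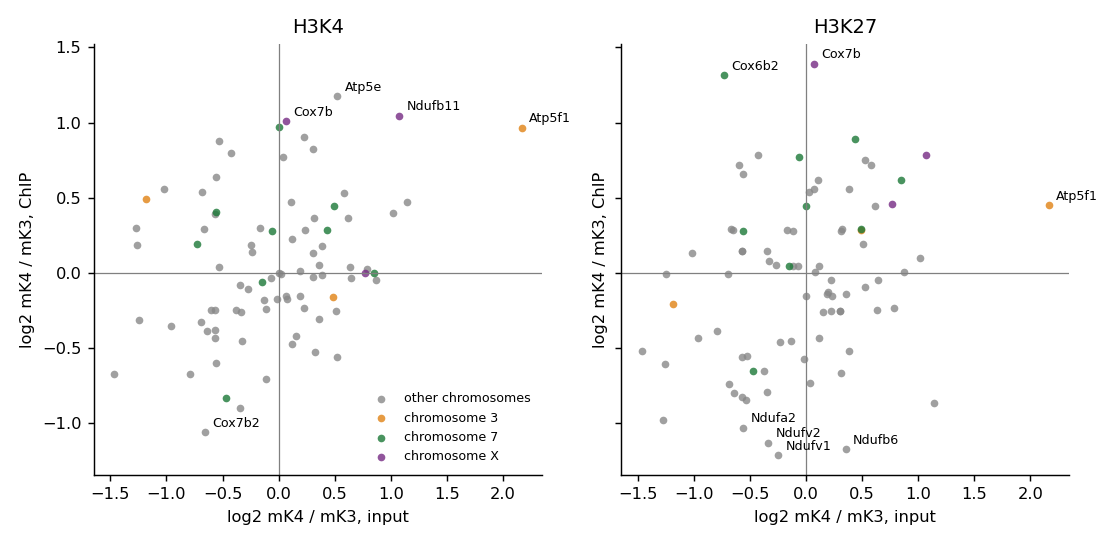
Each point is 1 of the 85 genes, with its log2 ratio of mK4 to mK3 in the input (x axis) and in the ChIP library (y axis) for H3K4 and H3K27, coloured by chromosome. Atp5f1 on chromosome 3 has the highest input ratio (2.17), and the genes with ChIP ratios of at least 1 or at most -1 are named.

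Lists of other genes were compared by their H3K4 share over their H3K27 share. Assembly factors of the complexes (30 measured of 42 listed) had an H3K4 share of 1.59 times their H3K27 share in mK4 (1.42 to 1.79) and 1.93 times in mK3 (1.73 to 2.15), with 7 genes at least 2-fold higher in mK4 and 12 in mK3 and 0 lower. Electron carriers and enzymes of coenzyme Q (17 genes) had ratios of 1.63 in mK4 and 1.75 in mK3, and the tricarboxylic acid cycle (15 genes) 1.52 in mK4 and 1.26 in mK3. The 16 regulators of mitochondrial genes, among them Nrf1, Gabpa and Yy1, had 1.01 in mK4 and 1.14 in mK3, with 2 genes at least 2-fold higher and 3 lower in mK4, and 3 higher and 1 lower in mK3. For comparison with other housekeeping complexes, the ratio was 2.18 in mK4 (1.99 to 2.39) and 2.16 in mK3 (1.98 to 2.35) for the 76 mitochondrial ribosomal protein genes. It was 2.10 in mK4 (1.91 to 2.30) and 1.95 in mK3 (1.79 to 2.14) for the 94 cytosolic ones. The intervals of the oxidative phosphorylation genes overlapped those of the mitochondrial ribosomal proteins in both lines, and no difference between these lists was tested.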

How the data were processed

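The 6 ChIP-seq and input libraries were grouped by their titles, 1 library per group. Per the file headers, each deposited table lists 22088 genes with the authors' read count and RPKM and the exon length in bases. The deposited RPKM values, counts per exon kilobase and 1000000 reads, were not used. Per the submitters' processing notes, reads were placed on build mm9. Neither the aligner nor the treatment of duplicate or repeated reads is given in the sources used here. Exon counts miss signal upstream of the first exon.

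For symbols on several rows, 1 row was used, that with most ChIP reads on average. Counts were scaled to the mean total of 513622, and log2 ratios used a pseudocount of 5. A call needed a ratio of at least 2-fold. Ratios of read shares have exact Clopper-Pearson 95% intervals, which cover counting error only. The background is the share of all 21937 genes that passed the same rule. Among genes with a mean scaled count of at least 10 the median H3K27 over input in mK4 was -0.10, and the other medians lay closer to 0. Calculations used Python 3.11.15, pandas 2.3.3 and scipy 1.17.1, and the steps were tested on simulated data.

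The members and lists were chosen with earlier results of these data known. Described gene by gene are all marked members, those at least 2-fold apart between the lines in a ChIP library, the highest and lowest of each complex for H3K4 and the 3 highest and 3 lowest overall for H3K27 (mean scaled count of at least 10), and the isoform genes with their partners. The isoform genes described include Atp5g1 to Atp5g3, which were not among the 8 whose reads were summed. Sdha, Sdhc, Atp5h, Atp5j2, Ndufb4 and Ndufs5 were added after their values were seen. The H3K4 over H3K27 ratio, the promoter motifs and the neighbour inputs were also added after the data were seen. Promoter sequences are from RefSeq, assembly GRCm38.p6.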

Additional observations from a re-analysis of the deposited data

How the results depend on the processing

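With 1 library per group there are no replicates to leave out. No paired analysis was possible because each group has 1 library. Between the lines, the H3K4 share of mK4 over mK3 (1.05) fell below 1 without chromosomes 3, 7, 14 and X, and the input share (0.960) was 1.01 among members with a mean scaled count of at least 10. The medians between the lines lay so close to 0 that their sign changed with several settings. The counts of genes moved with the pseudocount and with exon length as background. The medians and share ratios of ChIP over input and of H3K4 over H3K27 kept their direction under each alternative run. Depth limits all gene-level calls. The counts of members in the paragraphs below show how calls moved between settings and are not set against all genes. In these counts, higher and lower mean by at least 2-fold.

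With a pseudocount of 1, H3K4 marked 18 members in mK4 and 13 in mK3 and lay at least 2-fold below input at 8 in mK4 and 10 in mK3. H3K27 marked 4 in each line and lay at least 2-fold below input at 34 in mK4 and 33 in mK3 (medians -0.86 in mK4 and -0.71 in mK3). H3K4 over H3K27 had medians of 0.98 in mK4 and 0.97 in mK3, with 40 members higher in mK3 and 7 lower in mK4 and 5 in mK3. Between the lines, 11 members were higher in mK4 and 4 lower for H3K4, 13 and 15 for H3K27, and 11 and 11 for input.

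With a pseudocount of 20, H3K4 marked 1 member in each line and H3K27 marked 0 in mK4. H3K4 at least 2-fold below input was found at 0 members in each line. H3K27 at least 2-fold below input was found at 2 in mK4 and 0 in mK3. The median H3K4 over input in mK4 was 0.11, those of H3K27 were -0.21 in mK4 and -0.18 in mK3, and those of H3K4 over H3K27 were 0.33 in mK4 and 0.28 in mK3, with 5 members higher in mK4, 3 in mK3 and 0 lower in either. Between the lines, 0 members passed for H3K4, H3K27 or lower input, and 1 for higher input.

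Among members with a mean scaled count of at least 10, H3K4 marked 5 in mK4. It lay at least 2-fold below input at 2 in mK4 and 0 in mK3. Its medians were 0.47 in mK4 and 0.38 in mK3, with a share ratio of 1.33 in mK3. H3K27 marked 0 in mK4 and lay at least 2-fold below input at 6 in mK3. H3K4 over H3K27 was higher at 17 in mK4 and lower at 0 in each line (medians 0.93 in mK4 and 0.77 in mK3). Between the lines, 0 were lower for H3K4, 1 was higher for H3K27 and 2 were lower for input.

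With exon length as background, H3K4 marked 21 members in mK4 and 17 in mK3. It lay at least 2-fold below that background at 0 in mK4 and 1 in mK3 (medians 0.53 in mK4 and 0.33 in mK3). H3K27 marked 0 in mK4 and lay at least 2-fold below at 3 in mK4 and 1 in mK3 (medians -0.25 in mK4 and -0.17 in mK3).

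Without chromosomes 3, 7, 14 and X, H3K4 was higher in mK4 at 1 member, H3K27 at 0 and input at 2, and the mK4 over mK3 share was 0.98 for H3K4 and 0.813 for H3K27. Median centring gave 5 members with higher H3K4 in mK4. Subtracting each gene's own input gave 8 higher and 2 lower for H3K4 and 7 higher and 4 lower for H3K27, and subtracting neighbour input gave 3 lower for H3K4 and 1 higher for H3K27. Without the 4 related genes, H3K4 in mK3 was at least 2-fold below input at 1 member and at least 2-fold below H3K27 at 0. Without Atp5c1, H3K4 marked 8 members in mK4 and 4 in mK3, with share ratios of 1.28 in mK4 and 1.15 in mK3, and H3K4 over H3K27 was higher at 26 in mK4 and 21 in mK3. Without Cox4nb no count of members changed, and the H3K4 over H3K27 share ratio in mK3 was 2.16 in place of 2.09.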
